A study of Mus musculus with 6 samples.

Results

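The nuclear receptor superfamily was examined in mouse epididymal white fat through a list of 44 receptor genes. The list was set by gene symbol, with earlier results of these data known. Each gene was read from the probe set that carries its symbol alone and has the highest mean over the arrays. Of the 44 genes, 42 had such a probe set among 18193 genes read in the same way, and 2 (Nr1h2 and Nr2e3) were not analysed here. All tissue came from male C57BL/6 mice aged 16 weeks on a chow diet, harvested while they fed freely. Control mice were FTO flox/flox, so that both copies of Fto, an RNA demethylase gene, carry recombination sites. AFO mice were Adiponectin-cre FTO flox/flox: they share those sites and also carry a Cre recombinase under adiponectin regulation, which acts in fat cells and leaves the other cells of the tissue unrecombined. Each genotype had 3 Affymetrix arrays, each made from an RNA pool of its own; how many mice made a pool is not given in the sources used here.

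Nuclear receptors are transcription factors that bind DNA and, in many cases, a small fat-soluble ligand such as a steroid, a thyroid hormone, a retinoid, an oxysterol or a fatty acid. Many bind DNA as a heterodimer with a retinoid X receptor, and ligand exchanges corepressors for coactivators on the bound receptor. In white fat PPAR gamma drives fat cell differentiation and lipid storage, and the glucocorticoid receptor acts both in differentiation and in the release of fatty acids.

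The arrays were first checked against their labels. Of 10 adipocyte markers 8 had a probe set, and their mean log2 signal lay between 11.41 and 11.88 on the 6 arrays, with Adipoq (adiponectin) at 13.14 to 13.43. Fto itself differed by -0.12 log2 units between genotypes (SE 0.25, limma adjusted p = 0.999999), and the position of its probe set against the removed exon is not known, so these values do not check the genotype. In each genotype the pool 2 array differed from the rest. Their mesothelial list mean was 5.47 in control and 4.74 in AFO fat against 8.13 to 8.33 on the others, and their B cell list mean was 8.04 and 8.56 against 5.16 to 5.73. In a tissue sample, fewer cells of a type and less RNA per cell cannot be told apart.

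**Figure D1:**
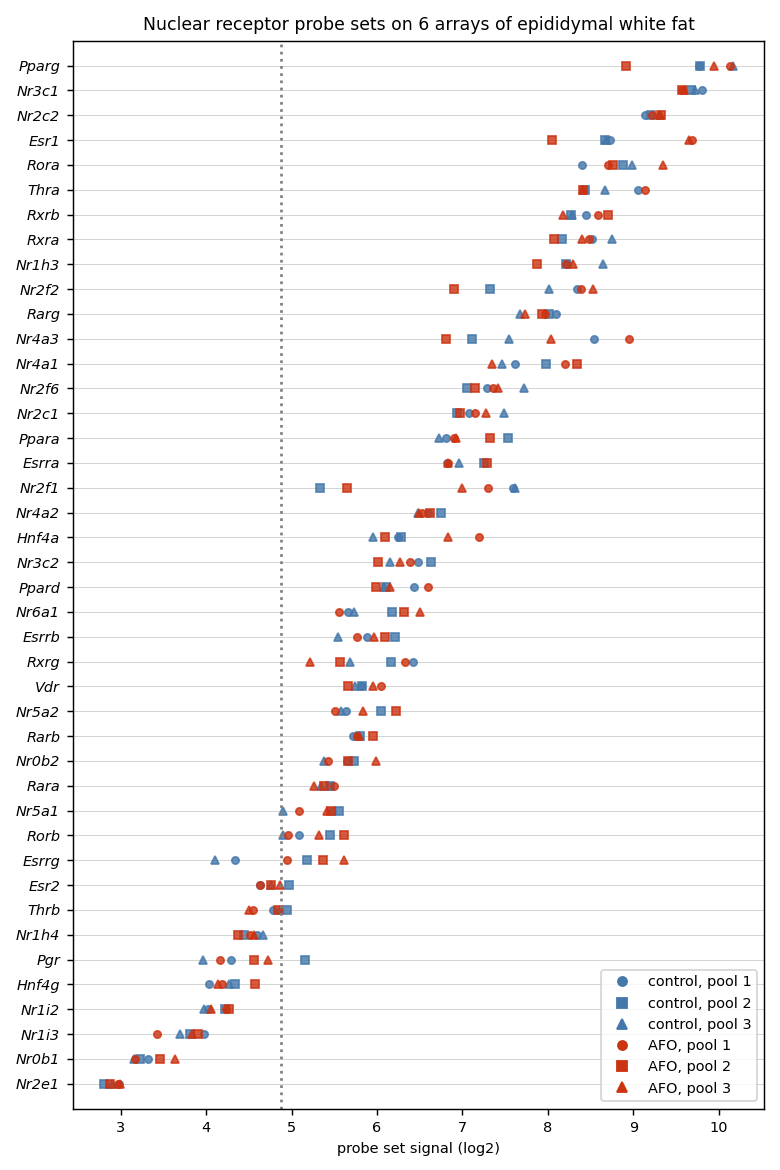
Log2 signal of the probe set read for each of 42 nuclear receptor genes (rows, ordered by mean) on 6 arrays (blue control, red AFO; circle, square and triangle for pools 1, 2 and 3); the dotted line is the detection filter at 4.88. Pparg stands at the top between 8.91 and 10.17, Nr2e1 at the bottom between 2.81 and 2.99, and the squares of Nr2f1, Nr2f2 and Nr4a3 lie left of their other symbols.

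Of the 42 genes, 33 had a mean signal at or above the filter of 4.88, the 40th percentile of all probe sets, and were tested. The strongest signals came from Pparg, at the 94.4th percentile of all genes read, followed by Nr3c1 (93.7), Nr2c2 (90.9), Esr1 (88.1), Rora (87.3), Thra (85.5), Rxrb (82.4), Rxra (82.1) and Nr1h3 (80.2). Probe sets differ in how well they bind their target, so this is an order of array signals and not of transcript numbers. The 9 genes below the filter were the oestrogen receptor Esr2, the thyroid hormone receptor Thrb, the bile acid receptor Nr1h4, the progesterone receptor Pgr, Hnf4g, the xenobiotic receptors Nr1i2 and Nr1i3, and the developmental receptors Nr0b1 and Nr2e1. Their array values ran from 2.81 to 5.16 and their differences between genotypes from -0.23 for Thrb to 0.19 for Nr0b1.

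The comparison of AFO with control fat asked whether receptor transcripts differed with the Cre. None of the 33 tested receptors passed. With limma, unpaired and adjusted over all 13453 tested genes, 0 receptors had an adjusted p under 0.05, and the background was 0% of all genes. At an unadjusted p under 0.05 there was 1 receptor (Esrrg), where 1.03% of all tested genes were called. Esrrg reached the filter through its AFO values, its control mean being 4.54, so no share that counts it is read as a result about the receptors. Of the 33 differences 19 were above 0 and 14 below, with a median of 0.038 log2 units beside -0.014 over all tested genes. The median was -0.035 with the mean of each gene's probe sets and -0.03 with a filter at the 60th percentile, so its sign is not settled. Within pools 1, 2 and 3 the receptors' median was 0.051, -0.088 and 0.052, beside 0.025, -0.023 and -0.038 over all tested genes. The 95% interval of the difference lay within 1 log2 unit on either side of 0 for 25 receptors. The 8 with wider limits were Pparg, Esr1, Nr2f2, Nr4a3, Nr2f1, Hnf4a, Rxrg and Esrrg. These were also the 8 whose signal ranged over at least 1 log2 unit among the arrays. The limits depend on the spread of the same values, so this match is no separate result. The median range over the 6 arrays was 0.67 for the tested receptors and 0.57 for all tested genes.

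**Figure D2:**
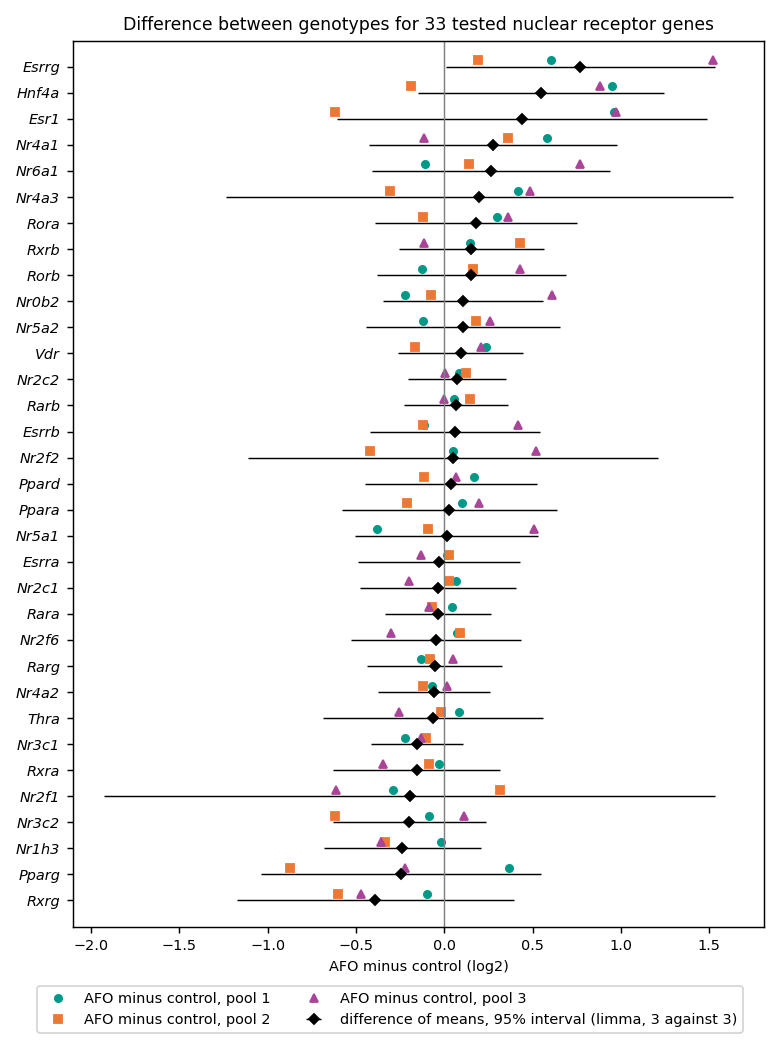
AFO minus control in log2 units for 33 tested receptors, ordered by the difference of means (black diamonds with 95% limma intervals, 3 arrays against 3), with the difference inside each pool as coloured symbols. Esrrg is highest at 0.77 and Rxrg lowest at -0.39, and for Esr1, Hnf4a and Pparg the pool 2 symbol stands left of the other pools.

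Pairing arrays of equal pool number, as a block in the fit, left 0 receptors called (background 0.0149% of genes), and 2 receptors, Rxrg and Esrrg, had an unadjusted p under 0.05 (background 4.32% of all genes). Within every pool AFO lay above control for Nr2c2 and Esrrg, 2 of 33 receptors (background 10.5% of all genes). It lay below for Rxrg, Nr3c1, Nr1h3 and Rxra, 4 of 33 (12.1%, against 12.8%), which is near the background.

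The steroid hormone receptors bind hormones of adrenal and gonadal origin. Nr3c1 encodes the glucocorticoid receptor. It read 9.80, 9.67 and 9.72 in control pools 1, 2 and 3 and 9.57, 9.57 and 9.59 in AFO pools 1, 2 and 3. The AFO values all lay below the control values, by small steps. On the probe sets read, Nr3c1 was the only tested receptor whose genotypes did not overlap in that direction, against 1.47% of all genes. With all AFO values above control there were 0 receptors, against 2.03%. The difference was -0.15 (SE 0.11, 95% interval -0.41 to 0.10, limma adjusted p = 0.999999). The 4 other Nr3c1 probe sets above the filter differed by -0.16, -0.27, -0.13 and 0.04, each with overlapping genotypes. Over the alternatives the limma adjusted p of Nr3c1 ran from 0.829 to 1. Nr3c2, the mineralocorticoid receptor, ranged from 6.02 to 6.63 and differed by -0.20 (SE 0.18), or by 0.012 without the pool 2 arrays.

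Esr1 encodes oestrogen receptor alpha and had the most divided values of the steroid receptors. It read 8.73, 8.67 and 8.68 in control pools 1, 2 and 3. In AFO pools 1, 2 and 3 it read 9.69, 8.05 and 9.65. The controls agreed closely, AFO pools 1 and 3 were about 1 log2 unit higher, and AFO pool 2 was the lowest array of all. The mean was 8.69 ± 0.03 (SD, n = 3) in control and 9.13 ± 0.94 (SD, n = 3) in AFO fat, a difference of 0.44 with an SE of 0.44 that did not pass. A second Esr1 probe set read 6.46, 6.35 and 6.68 in control and 7.70, 5.87 and 6.78 in AFO fat. There AFO pool 1 stood clear of the controls, AFO pool 3 exceeded the highest control by 0.10 and AFO pool 2 was again lowest.

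Without both pool 2 arrays, 2 arrays against 2, Esr1 was the single receptor that passed, at 0.97 (SE 0.15, limma adjusted p = 0.0394), or 3.03%, where 0.676% of all genes passed. With the block added over the same 4 arrays, 3 receptors passed, each higher in AFO fat, where 2.01% of all genes passed in either direction: Esr1 (limma adjusted p = 0.000725), Hnf4a (0.00476) and Esrrg (0.0245). These are not separate pieces of evidence, since the 4 arrays are shared. No receptor passed when a single array was left out.

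Hnf4a encodes a receptor of liver, gut and kidney epithelium. Its strongest probe set read 6.24, 6.28 and 5.95 in control pools 1, 2 and 3 and 7.20, 6.09 and 6.83 in AFO pools 1, 2 and 3. AFO pools 1 and 3 were again the highest arrays, and AFO pool 2 lay among the controls. The difference was 0.55 (SE 0.29, 95% interval -0.15 to 1.24), which did not pass over the 6 arrays. A dimmer Hnf4a probe set, below the filter, read 2.90, 2.72 and 2.96 in control fat. It read 6.18, 2.90 and 4.80 in AFO pools 1, 2 and 3, so the same arrays stood out by a wider margin. A further probe set above the filter read 5.30, 5.53 and 4.97 in control and 5.32, 5.43 and 5.11 in AFO fat, with no such rise. When probe sets without an _s_at or _x_at ending were preferred, that one was used and the difference was 0.019.

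Epithelial markers were read on the same arrays, and they were divided. The mean log2 signal of the 6 epithelial markers was 5.94, 6.56 and 5.62 in control pools 1, 2 and 3 and 7.16, 5.08 and 6.89 in AFO pools 1, 2 and 3. Of the 6, 5 had a higher mean in AFO fat. The list ranged from 5.62 to 6.56 in control and from 5.08 to 7.16 in AFO fat. Krt8, a keratin of simple epithelia, lay at 6.98 to 7.78 in control fat and at 9.23, 4.63 and 8.93 in the AFO pools. Krt8, Krt18 and Epcam were each highest in AFO pools 1 and 3, as Esr1 and Hnf4a were. The others were not: Cdh1, below the filter, read 6.59, 3.87 and 5.82 in the AFO pools but also 6.13 in control pool 2. Cldn4 was highest in control pool 2, at 5.44, and Krt7 was highest in control pool 1, at 6.51, with a lower mean in AFO fat. Of 6 epididymis markers 4 had a probe set, and all 4 had a higher mean in AFO fat, but they did not rise together. The list mean was 4.36 to 4.69 in control fat, and its AFO values by pool were 6.15, 4.51 and 4.63. On the array at 6.15, Rnase10 read 7.88 and Adam7 8.07, against 4.49 to 4.79 and 4.64 to 5.10 on all others. Lcn5 and Defb2, both below the filter, read 4.04 and 4.59 there, against 3.72 to 4.01 and 4.52 to 4.91 in control fat. The part of these markers in the values of Esr1 and Hnf4a was not tested.

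**Figure D3:**
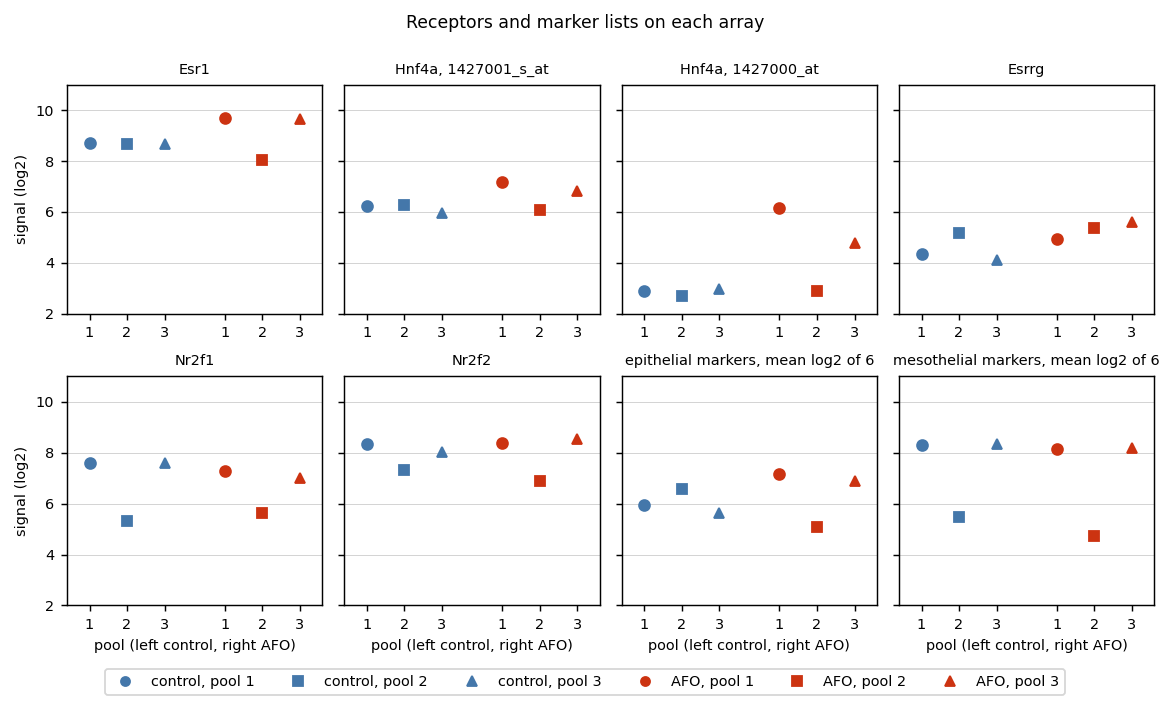
Log2 signal on each array (control left in blue, AFO right in red, pools 1 to 3) of Esr1, 2 probe sets of Hnf4a, Esrrg, Nr2f1 and Nr2f2, and the mean log2 signal of the epithelial and mesothelial marker lists. Esr1, Hnf4a and the epithelial list are highest in AFO pools 1 and 3, while Nr2f1, Nr2f2 and the mesothelial list are lowest in pool 2 of both genotypes.

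The oestrogen-related receptors bind no oestrogen and act with PGC-1 coactivators on mitochondrial genes. Esrrg had the largest difference of the tested receptors. It read 4.34, 5.18 and 4.10 in control pools 1, 2 and 3 and 4.95, 5.37 and 5.62 in AFO pools 1, 2 and 3. AFO exceeded control inside every pool, but control pool 2 lay above AFO pool 1, so the genotypes overlapped. The difference was 0.77 (SE 0.32, 95% interval 0.01 to 1.53), with an unadjusted p of 0.0477 and a limma adjusted p of 0.999999. With the block the unadjusted p was 0.0241 and the limma adjusted p 0.990. Over the alternatives that adjusted p ran from 0.0245 to 1. Its mean over the arrays, 4.92, stood just above the filter. Its other probe sets lay at 3.11 to 3.76, with differences of 0.03 and 0.15. The skeletal muscle list, a tissue where Esrrg is known to be active, had means of 5.21, 9.78 and 4.63 in control and 9.82, 12.13 and 4.82 in AFO fat. All 6 of its markers had a higher mean in AFO fat, with a median difference of 2.46. Their part in the Esrrg values was not tested. Esrra ranged from 6.81 to 7.28 and Esrrb from 5.55 to 6.21, with differences of -0.03 (SE 0.19) and 0.06 (SE 0.20). Both were higher on the pool 2 arrays than on all others, but a second Esrra probe set above the filter overlapped there.

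The PPARs are receptors for fatty acids and their derivatives. Pparg read 9.76, 9.78 and 10.17 in control pools 1, 2 and 3 and 10.13, 8.91 and 9.94 in AFO pools 1, 2 and 3. AFO pool 2 was the lowest array, well under the other 5. The difference was -0.24 (SE 0.33, 95% interval -1.04 to 0.55), and without AFO pool 2 its sign turned, to 0.13. Ppara, which drives fatty acid oxidation, read 6.81, 7.53 and 6.73 in control pools 1, 2 and 3. It read 6.91, 7.32 and 6.92 in the AFO pools. Both pool 2 values were above the other 4, and 2 further Ppara probe sets put pool 2 above the rest as well, by 1.14 and 0.93. Its difference between genotypes was 0.03 (SE 0.25), but the 2 further probe sets gave -0.22 and -0.20. The mean of the Ppara probe sets gave -0.13, so the sign is not settled. Ppard, the widely expressed member, ranged from 5.99 to 6.60 and differed by 0.04 (SE 0.20). A second Ppard probe set above the filter differed by -0.22. It read 5.06, 4.97 and 5.12 in control and 4.92, 4.91 and 4.67 in AFO pools 1, 2 and 3, without overlap. The mean of the Ppard probe sets gave -0.09.

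The retinoid X receptors are the heterodimer partners of PPARs, retinoic acid, thyroid hormone, oxysterol and vitamin D receptors. Rxra read 8.51, 8.16 and 8.75 in control pools 1, 2 and 3 and 8.48, 8.07 and 8.40 in the AFO pools. The pool 2 arrays were lowest in both genotypes, and the difference was -0.16 (SE 0.20). Rxrb read 8.44, 8.28 and 8.29 in control and 8.59, 8.70 and 8.17 in AFO fat, with a difference of 0.15 (SE 0.17). The dimmer Rxrg read 6.42, 6.16 and 5.69 in control pools 1, 2 and 3. In the AFO pools it read 6.33, 5.56 and 5.21. It was lower in AFO fat inside each pool, by 0.10, 0.60 and 0.47 log2 units, while the genotypes overlapped. The difference was -0.39, the lowest among the tested receptors, with an SE of 0.33 unpaired and 0.14 with the block (unadjusted p = 0.275 and 0.0346, limma adjusted p = 0.999999 and 0.990).

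Among the partners, Thra, the main thyroid hormone receptor of the list, read 9.05, 8.43 and 8.66 in control and 9.14, 8.42 and 8.41 in AFO pools 1, 2 and 3. Pool 1 was highest in both genotypes, and the difference was -0.06 (SE 0.26). In AFO fat the other Thra probe sets were highest in pool 3, at 7.77 and 7.69. Rarg, a retinoic acid receptor, read 8.10, 8.01 and 7.68 in control and 7.96, 7.93 and 7.73 in AFO fat, with pool 3 lowest in both. A second Rarg probe set was lowest in pool 2 in control, at 6.02, and in pool 3 in AFO fat, at 5.54. Rara ranged from 5.26 to 5.49, Rarb from 5.72 to 5.95 and the vitamin D receptor Vdr from 5.65 to 6.05. The differences of these 5 receptors lay between -0.063 and 0.092. Nr1h3 encodes LXR alpha, the oxysterol receptor that induces cholesterol export genes. It read 8.23, 8.21 and 8.65 in control and 8.21, 7.87 and 8.29 in AFO pools 1, 2 and 3. AFO lay below control in each pool, by 0.02 in pool 1, and the difference was -0.24 (SE 0.19, unadjusted p = 0.242). Rora, an activator at clock-controlled genes, read 8.40, 8.88 and 8.98 in control and 8.70, 8.76 and 9.34 in AFO fat. On this probe set pool 3 was highest in both genotypes, and the difference was 0.18 (SE 0.24). The 9 Rora probe sets disagreed, and another put AFO pool 3 lowest of all arrays, at 7.03. The mean of its probe sets gave a difference of -0.035. Rorb ranged from 4.90 to 5.61.

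The COUP transcription factors Nr2f1 and Nr2f2 are orphan receptors of mesenchyme, vessels and developing organs. Both were low on the pool 2 arrays. Nr2f1 read 7.59, 5.33 and 7.61 in control pools 1, 2 and 3 and 7.29, 5.65 and 7.00 in AFO pools 1, 2 and 3. Pool 2 minus the mean of pools 1 and 3 was -2.27 log2 units in control and -1.50 in AFO fat. Nr2f2 read 8.34, 7.32 and 8.01 in control pools 1, 2 and 3. In the AFO pools it read 8.39, 6.90 and 8.53. Pool 2 was again lowest, and 3 further Nr2f2 probe sets above the filter put pool 2 below by 0.71, 0.67 and 0.95. The genotypes differed by -0.20 (SE 0.72) for Nr2f1 and 0.05 (SE 0.48) for Nr2f2. With the block their SEs were 0.19 and 0.19, and neither passed.

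Mesothelial and stromal markers moved with these receptors. On the pool 2 arrays all 6 mesothelial markers were below the other 4 arrays, as were 5 of 7 stromal progenitor markers and 4 of 6 endothelial markers. On these arrays 31.0% of all tested genes were below too. The stromal progenitor list averaged 9.35 (control) and 9.45 (AFO) there and 9.86 to 9.97 elsewhere. The endothelial list mean was 8.41 and 8.11 against 8.82 to 9.06. The part of these markers in the low values of Nr2f1 and Nr2f2 was not tested.

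On the probe sets read, the other receptors of this class were steadier. Nr2c2, or testicular receptor TR4, read 9.13, 9.20 and 9.31 in control and 9.22, 9.32 and 9.31 in AFO pools 1, 2 and 3. Its range of 0.19 was the smallest among the tested receptors, and its difference was 0.07 (SE 0.12). The other Nr2c2 probe sets above the filter differed by -0.19 and -0.22, with AFO pool 3 the lowest array of each, at 6.56 and 5.43. The mean of the Nr2c2 probe sets gave -0.12. Nr2c1 (TR2) read 7.08, 6.94 and 7.48 in control and 7.15, 6.97 and 7.28 in AFO fat. Nr2f6 (EAR2) read 7.29, 7.06 and 7.72 in control and 7.36, 7.15 and 7.42 in AFO fat. Both were lowest on the pool 2 arrays, and their differences between genotypes were -0.04 (SE 0.18) and -0.05 (SE 0.20).

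The NR4A receptors are immediate-early genes: they are induced within minutes by hormones that raise cyclic AMP, and they act without a known natural ligand in the usual pocket. Their promoters are shown because all 3 carry the same short element, the core of the cyclic AMP response element, where CREB binds. It reads TGACG, and its complement on the opposite strand reads CGTCA. The 250 bases before the RefSeq transcript start (assembly GRCm38.p6) are given 5′ to 3′ on the gene's strand, with the core on either strand in capitals. They lie at chr15:101266596-101266845 on the plus strand for Nr4a1, chr2:57124004-57124253 on the minus strand for Nr4a2 and chr4:48045055-48045304 on the plus strand for Nr4a3.
Nr4a1: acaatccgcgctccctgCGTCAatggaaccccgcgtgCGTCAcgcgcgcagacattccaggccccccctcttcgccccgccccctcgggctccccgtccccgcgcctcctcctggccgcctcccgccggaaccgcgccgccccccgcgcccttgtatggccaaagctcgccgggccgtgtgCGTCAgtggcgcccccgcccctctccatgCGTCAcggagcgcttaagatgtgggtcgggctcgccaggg
Nr4a2: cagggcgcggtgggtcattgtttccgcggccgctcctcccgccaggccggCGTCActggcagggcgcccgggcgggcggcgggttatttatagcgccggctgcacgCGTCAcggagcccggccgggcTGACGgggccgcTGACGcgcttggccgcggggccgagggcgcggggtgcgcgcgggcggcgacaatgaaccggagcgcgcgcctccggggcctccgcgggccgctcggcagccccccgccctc
Nr4a3: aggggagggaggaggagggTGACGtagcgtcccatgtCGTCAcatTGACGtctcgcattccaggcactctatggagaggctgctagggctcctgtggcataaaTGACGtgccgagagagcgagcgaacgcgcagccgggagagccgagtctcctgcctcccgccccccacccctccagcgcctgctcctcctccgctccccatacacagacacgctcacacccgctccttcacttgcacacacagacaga

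Each of the 3 NR4A windows held 4 copies of the core. In Nr4a1 they began between 233 and 40 bases before the start, in Nr4a2 between 200 and 111 and in Nr4a3 between 231 and 147. Of all 32851 RefSeq windows of this length 17.8% held at least 1 copy and 45 windows (0.137%) held at least 4. The cutoff of 4 is the count found in the NR4A windows, so the share at 4 does not test how rare they are. Among 61 windows of the receptors, which covered 40 of the 44 genes, 13 held at least 1 copy (21.3%), and the 3 NR4A windows were the ones with at least 4. The full palindrome TGACGTCA, which contains the core on both strands, was in none of the NR4A windows and in 1.55% of all. The receptor half-site AGGTCA was sought on both strands too. It was in 10 of the 61 receptor windows (16.4%) and in 14% of all, and its extended form AAAGGTCA, which contains it and is bound by NR4A monomers, in 2 windows (Rxra and Rxrg) and 1.34% of all. A match describes these letters and is no evidence of binding.

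On the arrays the NR4A genes did not move as one. Nr4a1 read 7.61, 7.98 and 7.46 in control pools 1, 2 and 3 and 8.20, 8.34 and 7.35 in AFO pools 1, 2 and 3. Pool 2 was its highest array in both genotypes, and the difference was 0.28 (SE 0.29). Nr4a2 ranged only from 6.47 to 6.75, with pool 2 slightly above the other 4 arrays. Nr4a3 read 8.54, 7.11 and 7.55 in control pools 1, 2 and 3. It read 8.95, 6.80 and 8.03 in the AFO pools. Here pool 2 was lowest and pool 1 highest, with a difference between genotypes of 0.20 (SE 0.60 unpaired, 0.18 with the block). A second Nr4a3 probe set did not follow it: it read 5.99, 6.27 and 5.88 in control and 5.83, 6.10 and 5.84 in AFO fat, with pool 2 highest. The pool 2 direction of Nr4a3 therefore depends on the probe set.

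Of 11 tested immediate-early genes, 3 were above all other arrays in pool 2 and 0 were below. Of all tested genes 18.1% were above and 31.0% below, and 0 immediate-early genes passed between genotypes. By the smallest p, Ier3 differed by 0.26 (SE 0.19) and Atf3 by 0.19 (SE 0.15). Fos, a subunit of the AP-1 factor, read 9.72, 10.58 and 8.64 in control and 9.38, 10.88 and 8.95 in AFO pools 1, 2 and 3. Its order of pools, with 2 highest and 3 lowest, is that of Nr4a1. Fos, like Egr1, Junb and Ier2 in the plot, was chosen after its values were seen.

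**Figure D4:**
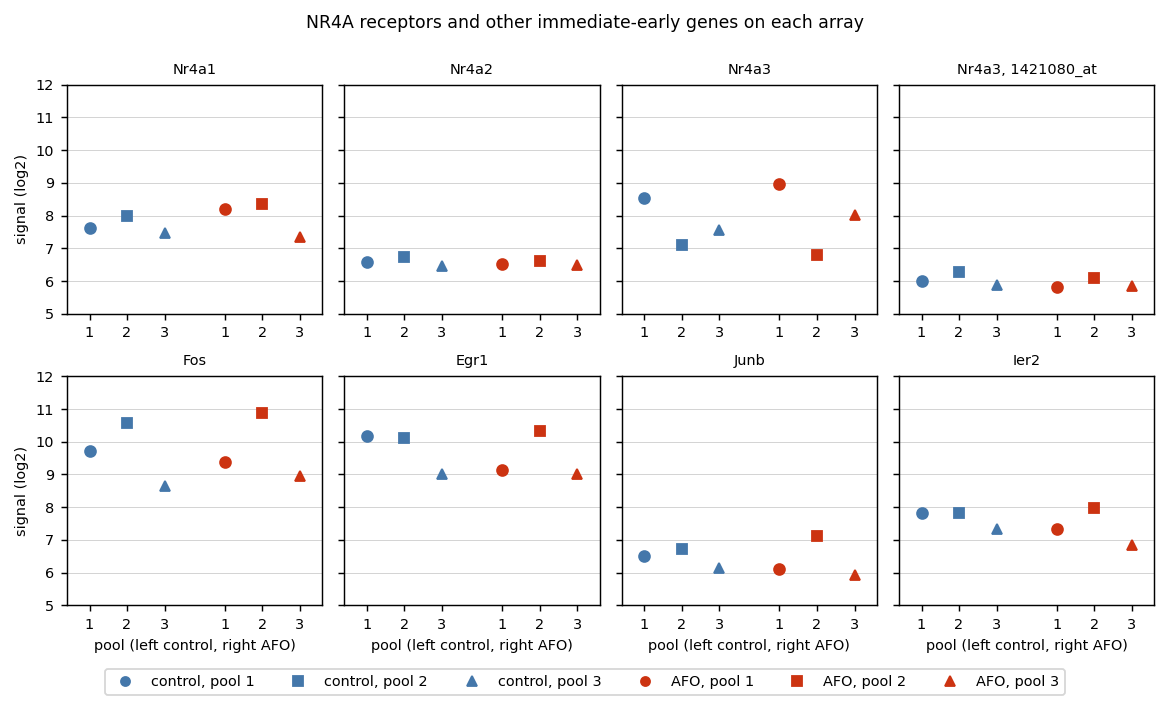
Log2 signal on each array (control left in blue, AFO right in red, pools 1 to 3) of Nr4a1, Nr4a2, 2 probe sets of Nr4a3, and Fos, Egr1, Junb and Ier2. Nr4a1 and Fos are highest in pool 2 and lowest in pool 3 in both genotypes, while the first Nr4a3 probe set is lowest in pool 2 (7.11 and 6.80).

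The remaining receptors had array values between 4.90 and 6.50. Nr5a1, the regulator of steroid-producing cells, ranged from 4.90 to 5.56 with a difference of 0.01 (SE 0.22). Nr5a2, its relative in liver and gut, ranged from 5.51 to 6.23 (0.11, SE 0.23), and the germ cell receptor Nr6a1 from 5.55 to 6.50 (0.27, SE 0.28). Nr0b2, a corepressor-like receptor without a DNA-binding domain, ranged from 5.38 to 5.99 (0.11, SE 0.19).

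The main axis of variation among the receptors set the pool 2 arrays apart. The first principal component of the 33 tested receptors held 59.5% of their variance, with coordinates of 1.81 and 2.51 for the pool 2 arrays and -0.49 to -1.67 for the other 4. Nr2f1, Nr4a3 and Nr2f2 made up 29.9%, 18.7% and 12.7% of that component. Over all tested genes the first component held 67.6% of the variance and set the same arrays apart. Its coordinates were 37.2 and 57.5 for the pool 2 arrays and -19.6 to -28.0 for the other 4. The separation of pool 2 is therefore not particular to the receptors. Both pool 2 arrays lay above the other 4 for 7 receptors (Esrrb, Nr5a2, Nr4a2, Rarb, Rorb, Ppara and Esrra), or 21.2%, where 18.1% of all genes did so. They lay below for 7 (Nr2f2, Nr2f1, Nr4a3, Nr2c1, Rxra, Esr1 and Nr2f6), again 21.2%, where 31.0% of all genes did so. With each array centred on its median the split was 5 above (15.2%, against 13.7% of all genes) and 12 below (36.4%, against 38.5%). Pool number is a label and not a group of the study, so these are counts with no test. Of the 19 receptors with several probe sets above the filter, 13 had the same sign of the pool 2 shift in all of them, and 6 the same sign of the genotype difference.

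**Figure D5:**
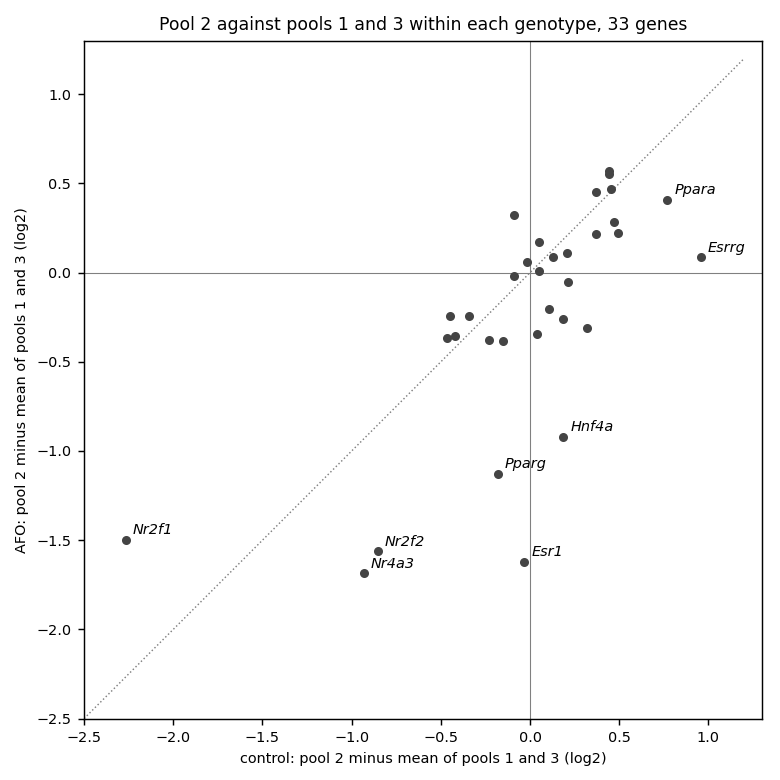
Pool 2 minus the mean of pools 1 and 3 in log2 units, in control fat (horizontal) and in AFO fat (vertical), for 33 tested receptors, with the line of equality dotted; receptors past 0.6 in either genotype are named. Nr2f1, Nr2f2 and Nr4a3 lie low in both genotypes, and Esr1, Pparg and Hnf4a lie low on the AFO axis and near 0 on the control axis, with AFO values of -1.62, -1.13 and -0.92.

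Genes that work with the receptors were read from lists, and 0 of them passed between genotypes in the unpaired fit or with the block. Of 19 tested coregulators 9 were higher and 10 lower in AFO fat, with a median of -0.033. Nrip1, the corepressor RIP140 of fat cells, read 9.94, 9.87 and 9.73 in control and 9.66, 9.35 and 8.69 in AFO pools 1, 2 and 3. All AFO values were below the controls, and the difference was -0.61 (SE 0.25, unadjusted p = 0.047, limma adjusted p = 0.999999). The corepressor enzyme Hdac3 differed by -0.19 (SE 0.18). The other receptors read were the clock repressors Nr1d1 and Nr1d2, which differed by 0.04 (SE 0.35) and 0.01 (SE 0.42).

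Enzymes and carriers that supply ligands had 9 of 16 tested genes higher, with a median of 0.029. Cyp7b1, an oxysterol hydroxylase, differed by 0.41 (SE 0.21) and Hsd11b1, which regenerates glucocorticoid, by -0.28 (SE 0.16). The following were named after their values were seen. Ptgds, a prostaglandin D synthase, read 6.88, 6.59 and 6.34 in control and 8.08, 5.99 and 8.23 in AFO pools 1, 2 and 3, and passed without the pool 2 arrays (1.54, limma adjusted p = 0.0175). Dio1, a thyroid hormone deiodinase below the filter, read 2.30 to 2.55 in control and 4.35, 2.33 and 3.85 in AFO fat. Crabp1, a retinoic acid carrier below the filter, read 3.24 to 3.50 in control and 5.28, 3.39 and 4.57 in AFO fat. These genes were high on the arrays where Esr1 and Hnf4a were high. Aldh1a2, which makes retinoic acid, read 5.71 and 5.43 in pool 2 of control and AFO fat and 7.73 to 7.95 on the others. Its low arrays were those of Nr2f1.

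Known targets of the receptors showed the same absence of calls. Of all 13453 tested genes 7301 were lower in AFO fat, with a median of -0.014. Of 11 tested PPARG targets 10 were lower in AFO fat, with a median of -0.12, among them Retn (resistin) at -0.23 (SE 0.13) and Lpl (lipoprotein lipase) at -0.15 (SE 0.11). Within pools 1, 2 and 3 their median was 0.0001, -0.38 and -0.19, beside 0.025, -0.023 and -0.038 over all tested genes. Pparg itself differed by -0.88 in pool 2. All 8 adipocyte markers read were lower in AFO fat too (median -0.16); some are on both lists, and their part in the target values was not tested. Of 12 glucocorticoid receptor targets 7 were lower (median -0.035), with Pdk4, a brake on glucose oxidation, at 0.44 (SE 0.22) and the metallothionein Mt2 at 0.25 (SE 0.30). Of 8 LXR targets 7 were lower (median -0.061), with Lpcat3 at -0.20 (SE 0.17) and the desaturase Scd1 at -0.19 (SE 0.18).

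The remaining target lists were smaller. Of 8 PPARA and PPARD targets 4 were higher and 4 lower (median 0.01), with the thiolase Acaa1a at -0.25 (SE 0.14) beside Pdk4. Of 5 thyroid hormone receptor targets 3 were lower (median -0.087), with Me1 at -0.21 (SE 0.27). The uncoupling protein Ucp1 differed by 1.17 (SE 1.32): it read 9.22 in AFO pool 2 and 5.79 in control pool 2, against 4.19 to 4.54 on the others. Of 5 retinoic acid receptor targets 4 were lower (median -0.13), with the retinoic acid hydroxylase Cyp26a1 at -0.16 (SE 0.18) and the retinol transporter Stra6 at -0.15 (SE 0.18). Of 8 targets of the oestrogen-related receptors 5 were lower (median -0.032), with Acadm at -0.15 (SE 0.12) and Ndufa4 at 0.08 (SE 0.13). On the pool 2 arrays 5 of these 8 were above all others, where 18.1% of all tested genes were. The brighter Esrra probe set was above as well, but a second one overlapped.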

How the data were processed

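Total RNA of 6 pools was labelled for 3′ expression arrays, per the labels' protocols. The deposited log2 values were made by the authors with RMA in Affymetrix Expression Console 1.4, per the submitters' processing notes. RMA equalises array distributions (medians 5.35 to 5.43), so shared shifts are hidden and dim differences compressed. The number of arrays limits precision. Of 45101 probe sets, 64 controls, 932 with several symbols and 9160 not listed were left out. Probe sets with a mean at or above 4.88 (40th percentile) were kept, 1 per gene, giving 13453 genes. Genotypes were compared with limma 3.58.1 (R 4.3.3, empirical Bayes with trend, unpaired, Benjamini-Hochberg over all genes, called at adjusted p under 0.05), a procedure tested on simulated data. The labels call the pools independent without giving the mice in each, so p-values measure the spread between pools.

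The receptors and gene lists were chosen with earlier results of these data known. Receptors with per-array values were the 15 strongest, the 5 with the smallest p unpaired and with the block, those with non-overlapping genotypes and the 8 with the largest pool 2 shift; from each list the 2 genes with the smallest p. Deviations from genotype means of equally numbered pools correlated across genes at 0.594, 0.799 and 0.589, which met the rule for pairing (over 0.1), but unequal pools 1 and 3 also correlated, at 0.441 and 0.362. What a shared number stands for is not stated. Alternatives covered filters, scaling, probe set choice, empirical Bayes settings, array weights, the block, omitted arrays and thresholds. Promoter windows came from RefSeq (GRCm38.p6).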

Additional observations from a re-analysis of the deposited data

How the results depend on the processing

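With the replicate block, which pairs equal pool numbers, 2 genes were called in place of 0, none of them a receptor; at an unadjusted p under 0.05 the block gave 581 genes and 2 receptors (an alternative chosen after seeing the data) and the unpaired fit 139 genes and 1 receptor. Leaving out both pool 2 arrays gave 91 genes and 1 receptor, and with the block as well 270 genes and 3 receptors. Leaving out 1 array at a time gave 0 to 27 genes (27 without AFO pool 2) and 0 receptors. Testing every probe set on its own called 0 of 23142 and moved the receptors' median difference from 0.038 to -0.053 over 73 probe sets; the mean of probe sets gave -0.035 and the 60th percentile filter -0.03. The other filters, scalings, probe set rules, empirical Bayes settings, array weights and the looser adjusted threshold called 0 genes with limma. The count of receptors with pool 2 outside the other arrays, 14, ran from 12 to 17. Of 584 single differences recomputed under 18 alternatives, 56, in 22 receptors, changed sign; in 2 of these (Nr3c2 without pool 2, with and without the block) the first value exceeded its standard error. The cause was not tested. The block changed no other call. Arrays with 3 pools a genotype and dim probe sets limit what can be seen: the median width of the 95% intervals was 0.97 log2 units.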
